A study of Homo sapiens with 6 samples.

Results

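The genes described here were 10 immediate early and ERK feedback genes, FOS, FOSL1, JUN, JUNB, EGR1, IER2, IER3, DUSP4, DUSP6 and SPRY2, taken by gene name from the 29153 genes listed in the deposited table. All 10 were found there. They were measured by RNA sequencing in HepG2 cells, an established human liver cancer line, in 3 libraries labelled sh-NC and 3 labelled sh-LINC01977. Cells of both groups had received a lentivirus carrying a short hairpin RNA and had been selected with puromycin, and both were collected at 72 h. The hairpin was a negative control in sh-NC and was directed at LINC01977, a long non-coding RNA, in sh-LINC01977, where the labels name a single hairpin. The comparison asks which transcripts changed when LINC01977 was targeted. No source used here states whether the 3 libraries of a group came from separate cultures, so the p-values measure the spread between these libraries, which may be technical.

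Immediate early genes are transcribed within minutes of a growth factor signal, without new protein synthesis. Growth factor receptors activate RAS, and the kinases RAF, MEK and ERK then relay the signal to nuclear factors such as ELK1, which act with serum response factor at these genes. Many products are transcription factors, and FOS and JUN proteins pair to form AP-1. A second set of ERK targets, the dual specificity phosphatases and Sprouty proteins, dampen the same cascade, so that their transcripts are often used as a readout of ERK output. In liver the pathway is best known from regeneration and from liver cancer.

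Total counts lay between 49929024 and 60441515 per library. Log2 CPM values correlated with r between 0.986 and 0.988 within groups and between 0.978 and 0.980 across them. The targeted RNA was close to undetected. LINC01977 had 4, 0 and 16 counts in sh-NC and 0, 0 and 4 counts in sh-LINC01977, with a log2 fold change of -2.12 with a standard error of 1.96 (edgeR adjusted p = 0.580), so its knockdown was not detectable at this depth. All 10 HepG2 hepatocyte markers examined were present. Their summed level was 5588 to 5962 FPKM in sh-NC and 4720 to 4836 FPKM in sh-LINC01977, and edgeR called 7 of the 10 lower and 1 higher at an adjusted p under 0.05, beside 8.07% and 7.05% of all genes tested. Of 10 markers of other cell types 9 were listed and 2 passed the filter, neither of them called, while their summed level ran from 12.4 to 16.4 FPKM in sh-NC and from 18.4 to 21.7 FPKM in sh-LINC01977. The 2 were CD68, a macrophage marker, at 25.8 to 34.4 CPM (counts scaled to the size of each library) in sh-NC and 36.3 to 41.3 CPM in sh-LINC01977 (edgeR adjusted p = 0.0627), and COL1A1, a fibroblast collagen, at 26.7 to 41.7 and 46.5 to 67.0 CPM (adjusted p = 0.0504). Both had groups that lay apart, with sh-LINC01977 higher. Below the filter CDH5, an endothelial marker, at 0.461 to 1.10 CPM in sh-NC and 0.0654 to 0.252 CPM in sh-LINC01977, and VIM, a mesenchymal marker, at 0.882 to 1.66 and 0.0766 to 0.685 CPM, lay apart in the other direction. The groups overlapped for PECAM1 and VWF, also endothelial markers. PECAM1 was at 1.96 to 2.80 CPM in sh-NC and 1.66 to 2.55 CPM in sh-LINC01977, and VWF at 0.0801 to 0.570 and 0.144 to 0.491 CPM. COL3A1 and THY1, also fibroblast markers, were at most 0.252 CPM in any library. PTPRC, a marker of white blood cells, was at 0.0735 CPM in 1 sh-NC library and at 0 in the other 5 libraries. Heat shock genes, examined as a sign of stress, summed to 1140 to 1165 FPKM and 1132 to 1155 FPKM, with overlapping groups, and of the 10 tested edgeR called HSPB1 higher (log2 fold change 0.36) and HSPA8 (-0.37) and HSPD1 (-0.14) lower, or 30% beside 15.1% of all genes. The mitochondrial share of counts was 11.7 to 13.5% in sh-NC and 10.6 to 11.7% in sh-LINC01977. The part of these marker and mitochondrial differences in the results below was not tested.

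JUNB, EGR1, IER3 and DUSP6 were higher in the sh-LINC01977 libraries, by 1.55-fold to 2.22-fold, while JUN, FOSL1, IER2 and SPRY2 did not pass the test. Genes were tested with edgeR where their mean over the 6 libraries reached 0.5 FPKM, which 8 of the 10 members did, and a gene was called at an adjusted p under 0.05 over all 13452 genes tested. Of these 8 members 4 were called higher, against a background of 7.05% of all genes tested. None was called lower, against a background of 8.07%. The members were chosen with earlier results of these data known, so these counts describe them and are no independent support. At an unadjusted p under 0.05 edgeR gave 1 member lower, JUN, and DESeq2 also gave 1 before adjustment and 0 after it. The median log2 fold change of the 8 was 0.39, with a range from -0.27 to 1.15, beside a median of -0.0010 over all genes tested. The study's thresholds of a fold of at least 2 and P of at most 0.05 were met by 2 members, JUNB and EGR1, and by 2.6% of the genes tested. The 3 libraries of each group lay apart, with all sh-LINC01977 values above all sh-NC values, for the 4 members called higher and for 18.8% of all genes. They lay apart in the other direction for 2 members, FOSL1 and JUN, and for 18.3% of all genes. These separations were read in CPM. In FPKM the groups overlapped for FOSL1 (9.75 to 9.87 in sh-NC, 6.55 to 10.1 in sh-LINC01977) and JUN (17.6 to 19.2, 16.6 to 17.8). FOS and DUSP4 fell below the filter. Both were called higher in the fit of all 29153 listed genes, in which 2.44% of genes were.

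**Figure D1:**
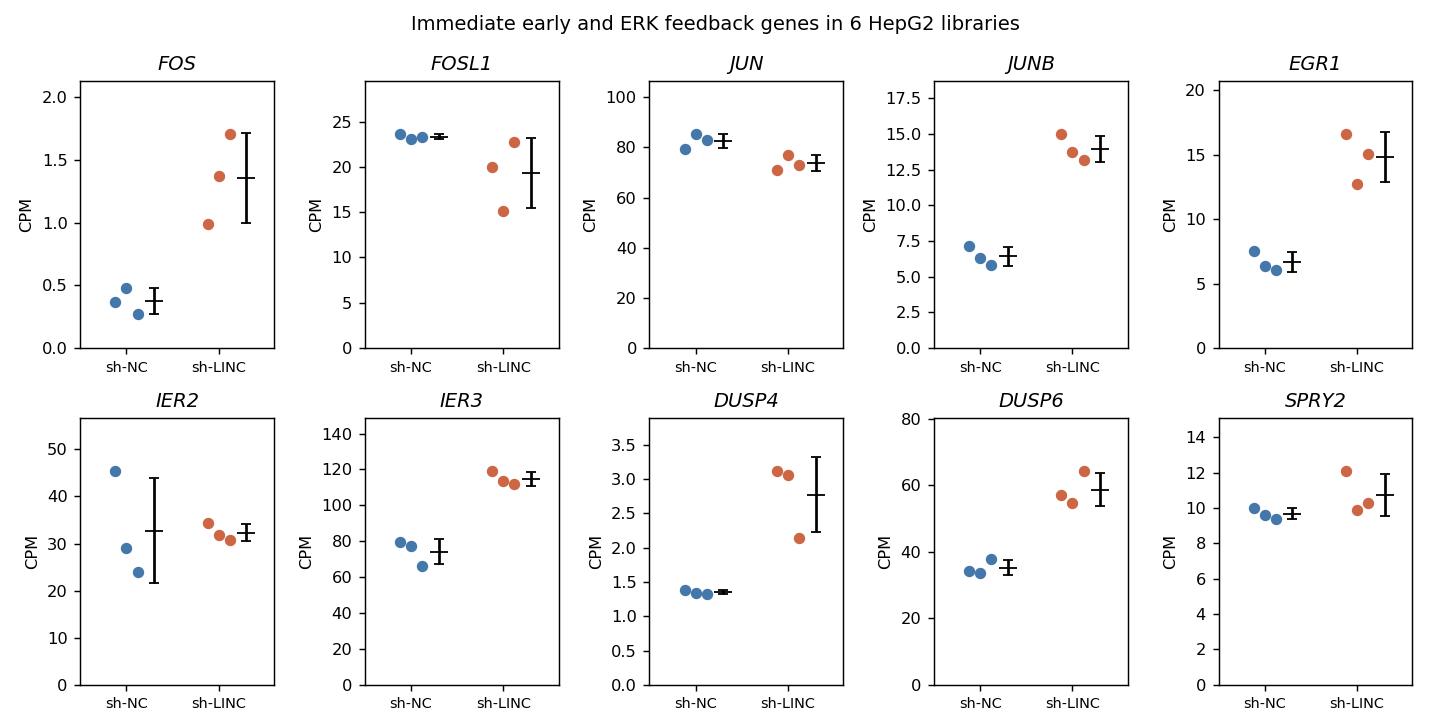
Level of each of the 10 members in each library, in CPM, with 1 point per library, a black bar at the mean with its SD over 3 libraries, and an axis from 0 for each gene. The groups lie apart for FOS, JUNB, EGR1, IER3, DUSP4 and DUSP6, where sh-LINC01977 is higher, and for FOSL1 and JUN, where it is lower, and overlap for IER2 and SPRY2.

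Among the AP-1 subunits JUNB rose. JUNB (ENSG00000171223, chromosome 19, 12791496 to 12793315 on hg38, plus strand) encodes a JUN protein that binds DNA with a FOS partner and is a weaker activator than JUN at many AP-1 sites. It had 7.16, 6.34 and 5.83 CPM in sh-NC and 14.97, 13.7 and 13.1 CPM in sh-LINC01977. Every sh-LINC01977 library stood above every sh-NC library. The means were 6.44 ± 0.673 and 13.9 ± 0.932 CPM (SD, n = 3), giving a log2 fold change of 1.11 (SE 0.12, 95% confidence interval 0.83 to 1.40, adjusted p = 0.00231). JUNB lies inside the listed interval of HOOK2, on the opposite strand. The counting is not stated to use strand, so reads of the overlapping genes cannot be told apart. HOOK2 had 545 to 620 counts in sh-NC and 668 to 740 in sh-LINC01977, a log2 fold change of 0.21, while JUNB had 313 to 390 and 677 to 835 counts.

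JUN and FOSL1 were the more abundant AP-1 members and did not pass the test. JUN (ENSG00000177606, chromosome 1, 58780788 to 58784327, minus strand), the founding JUN protein, had 79.5, 85.2 and 83.2 CPM in sh-NC and 71.0, 77.1 and 72.9 CPM in sh-LINC01977. The groups lay apart by a small margin in CPM and overlapped in FPKM. JUN differed by -0.16 on the log2 scale (SE 0.057, interval -0.30 to -0.03), with an edgeR adjusted p of 0.105. FOSL1 (ENSG00000175592, chromosome 11, 65892049 to 65900573, minus strand) encodes FRA1, a FOS-related protein that accumulates under sustained ERK activity. It had 23.6, 23.1 and 23.3 CPM in sh-NC and 20.02, 15.2 and 22.7 CPM in sh-LINC01977, where replicate 2 was the lowest. FOSL1 differed by -0.27 on the log2 scale (SE 0.15, interval -0.62 to 0.08, adjusted p = 0.261). Without sh-LINC01977 replicate 2 the difference was -0.13 (edgeR adjusted p = 0.440), and without sh-LINC01977 replicate 3 it was -0.41 (adjusted p = 0.126).

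FOS was scarce in both groups and higher in sh-LINC01977. FOS (ENSG00000170345, chromosome 14, 75278774 to 75282230, plus strand), the classical serum-induced AP-1 subunit, had 20, 24 and 16 counts in sh-NC and 55, 84 and 89 counts in sh-LINC01977. In CPM these were 0.368, 0.481 and 0.274 against 0.991, 1.37 and 1.70, with the groups apart. The fitted log2 fold change was 1.86 (SE 0.36, interval 1.02 to 2.69, edgeR adjusted p = 0.0275 over all listed genes). The call was lost without sh-NC replicate 1 (adjusted p = 0.0826), sh-NC replicate 3 (0.0821), sh-LINC01977 replicate 2 (0.0909) or sh-LINC01977 replicate 3 (0.0997). The log2 fold change with 1 library left out stayed between 1.65 and 2.07.

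**Figure D2:**
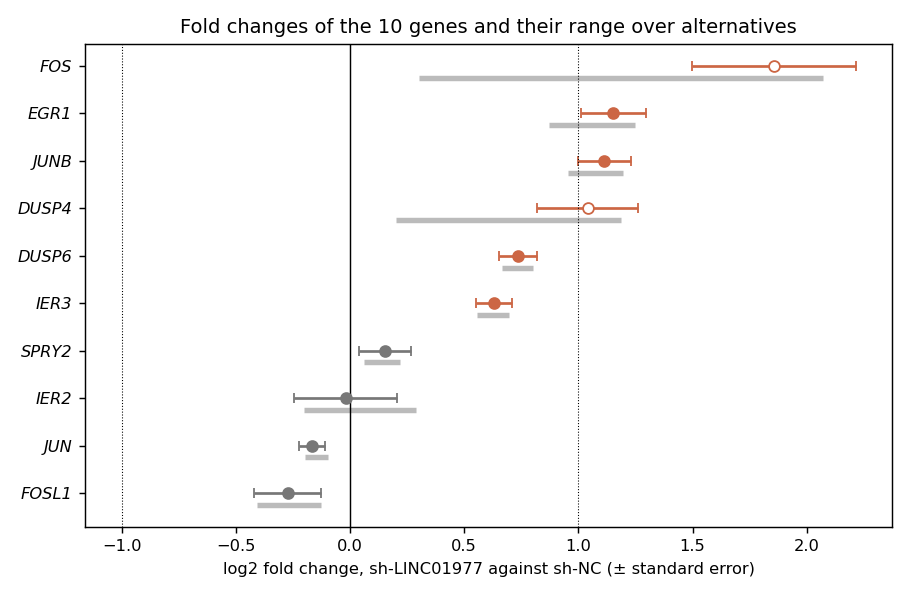
Log2 fold change of each member, sh-LINC01977 against sh-NC, as a point with its standard error, orange where called by edgeR and open where read from the fit of all listed genes, above a grey bar for its range over the alternative settings, with dotted lines at a fold of 2. JUNB and EGR1 lie just above a log2 fold change of 1, and the grey bars of FOS (0.30 to 2.07) and DUSP4 (0.20 to 1.19) are the longest.

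Of the 3 other immediate early members EGR1 and IER3 rose and IER2 did not pass the test. EGR1 (ENSG00000120738, chromosome 5, 138465490 to 138469315, plus strand) encodes a zinc finger transcription factor that is a standard reporter of ERK signalling. Its 3 sh-NC libraries had 7.51, 6.40 and 6.05 CPM, and its 3 sh-LINC01977 libraries had 16.6, 12.8 and 15.1 CPM. The groups did not overlap, and the lowest sh-LINC01977 value exceeded the highest sh-NC value. The means were 6.65 ± 0.763 and 14.8 ± 1.92 CPM (SD, n = 3), a log2 fold change of 1.15 (SE 0.14, interval 0.81 to 1.49, adjusted p = 0.00382).

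IER3 (ENSG00000137331, chromosome 6, 30743199 to 30744554, minus strand), also known as IEX-1, encodes a small protein that acts in cell survival and is an ERK substrate. It had 79.3, 77.2 and 66.1 CPM in sh-NC and 119, 113 and 112 CPM in sh-LINC01977. The groups lay well apart. The means were 74.2 ± 7.08 and 115 ± 3.75 CPM (SD, n = 3), a log2 fold change of 0.63 (SE 0.079, interval 0.44 to 0.82, adjusted p = 0.00409), or 1.55-fold. IER2 (ENSG00000160888, chromosome 19, 13150415 to 13154908, plus strand), a nuclear protein induced early after growth factor stimulation, had 45.4, 29.0 and 23.9 CPM in sh-NC and 34.3, 31.9 and 30.8 CPM in sh-LINC01977. The groups overlapped, and sh-NC replicate 1 was the highest of the 6 libraries. IER2 differed by -0.02 on the log2 scale (SE 0.22, interval -0.56 to 0.52, adjusted p = 0.966). Without sh-NC replicate 1 it was 0.29, with an adjusted p of 0.176. Both genes overlap a listed gene on the opposite strand, with 18 to 62 counts for the partner of IER3 and 2 to 21 for that of IER2.

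The promoters of 2 members that rose and of 1 that did not are shown to set the sequence before each start beside these values. The promoter table used, from RefSeq (GRCh38.p14), gave a window for 7 of the 10 members, all but IER3, FOSL1 and DUSP4. Each line gives the 250 bases before the start, 5′ to 3′ on the strand of the gene, with capitals at the matches of 6 motifs searched on both strands. The motifs were the CArG box, which serum response factor binds, the cyclic AMP response element TGACGTCA, the AP-1 motif TGANTCA, the EGR motif GCGGGGGCG, the ETS motif CCGGAAG and the TATA box TATAAA.
EGR1, chr5:138465229-138465478, plus strand: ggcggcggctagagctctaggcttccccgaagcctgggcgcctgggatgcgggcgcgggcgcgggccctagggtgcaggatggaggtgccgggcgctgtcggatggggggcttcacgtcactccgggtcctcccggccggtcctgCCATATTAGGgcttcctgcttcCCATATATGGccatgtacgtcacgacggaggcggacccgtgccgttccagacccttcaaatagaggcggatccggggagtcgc
JUNB, chr19:12791236-12791485, plus strand: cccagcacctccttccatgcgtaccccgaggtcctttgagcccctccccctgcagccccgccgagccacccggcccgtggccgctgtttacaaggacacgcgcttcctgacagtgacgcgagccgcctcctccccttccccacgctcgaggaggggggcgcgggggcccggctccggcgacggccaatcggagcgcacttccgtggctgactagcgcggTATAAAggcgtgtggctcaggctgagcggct
IER2, chr19:13150161-13150410, plus strand: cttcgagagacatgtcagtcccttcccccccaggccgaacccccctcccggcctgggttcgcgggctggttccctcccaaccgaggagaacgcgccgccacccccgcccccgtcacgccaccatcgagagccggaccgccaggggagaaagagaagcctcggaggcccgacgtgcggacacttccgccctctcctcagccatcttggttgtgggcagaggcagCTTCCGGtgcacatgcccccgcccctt

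The EGR1 window held 2 CArG boxes, at positions -105 to -96 and -83 to -74 from the start. The JUNB window held a TATA box at -31 to -26, and the IER2 window an ETS motif on its minus strand at -27 to -21. Among the windows not printed, that of FOS held a TATA box at -33 to -28, 1 of the SPRY2 windows held an EGR motif on its minus strand at -41 to -33, and those of JUN and DUSP6 held no match. Over 35116 promoter windows of the same length the CArG box was in 1.16%, the cyclic AMP response element in 1.65%, the EGR motif in 4.72%, the AP-1 motif in 6.57%, the ETS motif in 8.52% and the TATA box in 10.7%. A match is a description of the letters in these windows.

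Of the 3 ERK feedback members DUSP6 rose by 1.66-fold, DUSP4 was called at a low level and SPRY2 did not pass the test. DUSP6 (ENSG00000139318, chromosome 12, 89347232 to 89353271, minus strand) encodes a cytoplasmic phosphatase that removes the activating phosphates of ERK. It had 34.3, 33.5 and 37.9 CPM in sh-NC and 57.1, 54.7 and 64.2 CPM in sh-LINC01977. The groups lay apart. The means were 35.2 ± 2.33 and 58.7 ± 4.95 CPM (SD, n = 3), a log2 fold change of 0.74 (SE 0.084, interval 0.53 to 0.94, adjusted p = 0.00296). A listed gene on the opposite strand of DUSP6 had 61 to 305 counts, beside 1653 to 3329 for DUSP6.

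DUSP4 (ENSG00000120875, chromosome 8, 29333064 to 29350668, minus strand), a nuclear phosphatase of ERK and related kinases, had 75, 67 and 77 counts in sh-NC and 173, 187 and 112 counts in sh-LINC01977. These were 1.38, 1.34 and 1.32 CPM against 3.12, 3.06 and 2.15 CPM. The groups lay apart, with sh-LINC01977 replicate 3 the lowest of its group. The log2 fold change was 1.04 (SE 0.22, interval 0.53 to 1.56, edgeR adjusted p = 0.0393 over all listed genes). The call was lost without sh-NC replicate 1 (adjusted p = 0.0993), sh-NC replicate 2 (0.103), sh-NC replicate 3 (0.109), sh-LINC01977 replicate 1 (0.123) or sh-LINC01977 replicate 2 (0.130), and the log2 fold change then lay between 0.95 and 1.06. The call was kept without sh-LINC01977 replicate 3 (log2 fold change 1.19, adjusted p = 0.0390). SPRY2 (ENSG00000136158, chromosome 13, 80335976 to 80340951, minus strand), which acts between the receptors and ERK, had 10.01, 9.59 and 9.39 CPM in sh-NC and 12.1, 9.86 and 10.3 CPM in sh-LINC01977. The groups overlapped, and sh-LINC01977 replicate 1 was the highest library. SPRY2 differed by 0.15 on the log2 scale (SE 0.11, interval -0.11 to 0.42, adjusted p = 0.404), and by 0.062 without sh-LINC01977 replicate 1 (adjusted p = 0.758).

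Among all 13452 genes ordered by log2 fold change, EGR1 was in place 194 and JUNB in place 203, which put them in places 123 and 131 of the 948 genes called higher. DUSP6 was in place 520 and IER3 in place 682. SPRY2, IER2, JUN and FOSL1 were in places 3753, 7113, 9749 and 11105. None of the 8 members tested varied over 2-fold between libraries of 1 group, and the highest ratio was 1.90, for IER2, while 11.8% of all genes tested did.

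Levels between genes were compared per length, in FPKM, the authors' values. In sh-NC the order from the highest was IER3 at 43.4 ± 3.83 FPKM (SD, n = 3), JUN at 18.5 ± 0.830, FOSL1 at 9.80 ± 0.0646, IER2 at 8.44 ± 2.79, DUSP6 at 6.04 ± 0.437, JUNB at 2.80 ± 0.260, SPRY2 at 2.52 ± 0.0558, EGR1 at 1.68 ± 0.173, DUSP4 at 0.146 ± 0.00334 and FOS at 0.0870 ± 0.0254 FPKM. The library ranges of IER2 overlapped those of both FOSL1 and DUSP6, and those of JUNB and SPRY2 overlapped each other. All other neighbours lay apart. In sh-LINC01977 IER3 at 70.3 ± 2.29 FPKM and JUN at 17.3 ± 0.600 FPKM still led. DUSP6 came next at 10.5 ± 1.04 FPKM, ahead of IER2 at 8.73 ± 0.453, FOSL1 at 8.49 ± 1.81 and JUNB at 6.36 ± 0.405 FPKM, and the range of FOSL1 overlapped those of DUSP6, IER2 and JUNB. EGR1 followed at 3.92 ± 0.540 and SPRY2 at 2.93 ± 0.330 FPKM, each apart from its neighbours. FOS at 0.341 ± 0.0989 and DUSP4 at 0.318 ± 0.0573 FPKM overlapped at the low end.

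**Figure D3:**
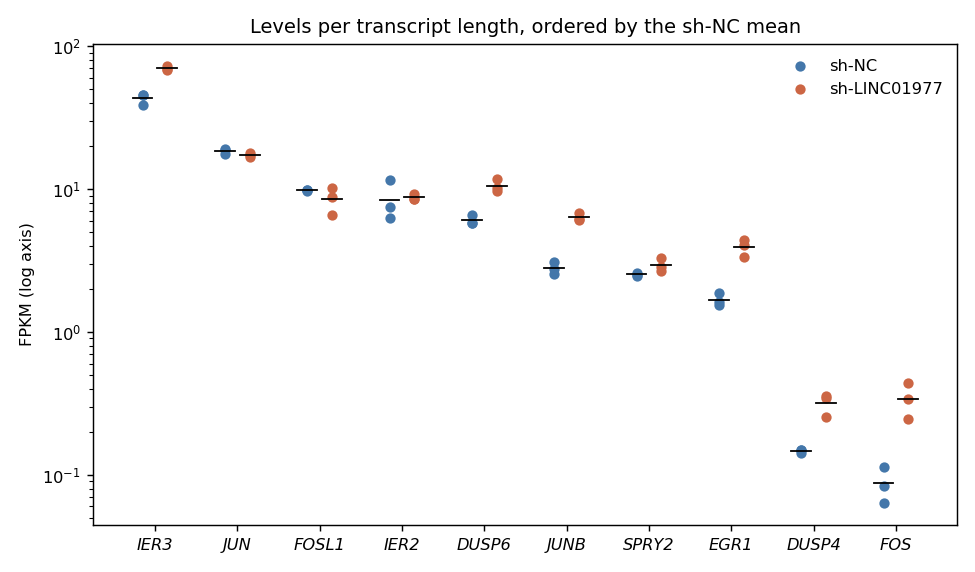
Level of the 10 members in each library in FPKM on a log axis, ordered by their mean in sh-NC, with 1 point per library and a bar at each group mean. IER3 and JUN are the most abundant members in both groups, and DUSP4 and FOS, under 0.5 FPKM, the least.

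The make-up of each protein family was read as the share that each gene held of the family's summed FPKM. Over the 22 comparisons, 18 shares and 4 sums, no exact two-sided permutation test could fall below p = 0.1 with 3 libraries against 3, and the lowest adjusted p was 0.169, so none can pass a threshold of 0.05. In the JUN family JUNB held 5.51, 4.75 and 4.48% in sh-NC and 13.1, 13.0 and 11.4% in sh-LINC01977, a difference of 7.59 percentage points (exact permutation p = 0.1). The share of JUND, the JUN protein most abundant in resting cells, was 62.7 ± 0.312% and 53.5 ± 3.60% (exact permutation p = 0.1), and that of JUN 32.4 ± 0.788% and 34.0 ± 3.15% (exact permutation p = 0.6). The JUN difference of 1.61 percentage points was -0.19 without sh-LINC01977 replicate 2 and 2.70 without sh-LINC01977 replicate 1. The family sum was 57.1 and 50.9 FPKM (exact permutation p = 0.1). Much of the FOS family was FOSL1 in both groups, at 78.8 ± 2.90% and 72.2 ± 7.85% (exact permutation p = 0.3), a difference of -6.63 percentage points that was -2.28 without sh-LINC01977 replicate 2. FOS itself made up 0.696 ± 0.187% and 2.90 ± 0.618% (exact permutation p = 0.1).

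Among the ERK phosphatases DUSP9, a cytoplasmic relative of DUSP6, held 78.9 ± 0.684% of the summed FPKM in sh-NC and 62.2 ± 1.31% in sh-LINC01977 (exact permutation p = 0.1). The share of DUSP6 was 5.69, 5.58 and 6.54% in sh-NC and 13.5, 14.6 and 16.5% in sh-LINC01977, a difference of 8.92 percentage points (exact permutation p = 0.1). DUSP5, a nuclear ERK phosphatase, held 3.40 ± 0.405% and 9.40 ± 0.142% (exact permutation p = 0.1), and DUSP4 0.144 ± 0.00151% and 0.450 ± 0.0842% (exact permutation p = 0.1). The summed level of the 7 phosphatases was 102 ± 1.64 FPKM in sh-NC and 70.9 ± 4.93 FPKM in sh-LINC01977 (exact permutation p = 0.1). The members DUSP4 and DUSP6 were thus higher while the family total was lower in every library of the group. That total was mostly DUSP9, at 80.3 ± 1.51 FPKM in sh-NC and 44.1 ± 3.26 FPKM in sh-LINC01977. The shares of the other genes therefore depend on the DUSP9 level. In mean FPKM DUSP5 (3.46 and 6.66) and DUSP6 (6.04 and 10.5) were higher in sh-LINC01977, as was DUSP4. DUSP1 (8.15 and 6.40) and DUSP7 (3.67 and 2.92) were lower. The Sprouty sum was 9.49 to 9.995 FPKM in sh-NC and 12.4 to 18.6 FPKM in sh-LINC01977 (exact permutation p = 0.1). Within it SPRY2 held 26.02 ± 0.169% and 20.4 ± 2.60% (exact permutation p = 0.1), a difference of -5.59 percentage points, or -3.55 with CPM in place of FPKM. SPRY4 held 61.6 ± 1.55% and 61.3 ± 10.5% (exact permutation p = 1.0). SPRY1 was at 32.4% in sh-LINC01977 replicate 1 and between 9.49 and 13.6% in the other 5 libraries.

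**Figure D4:**
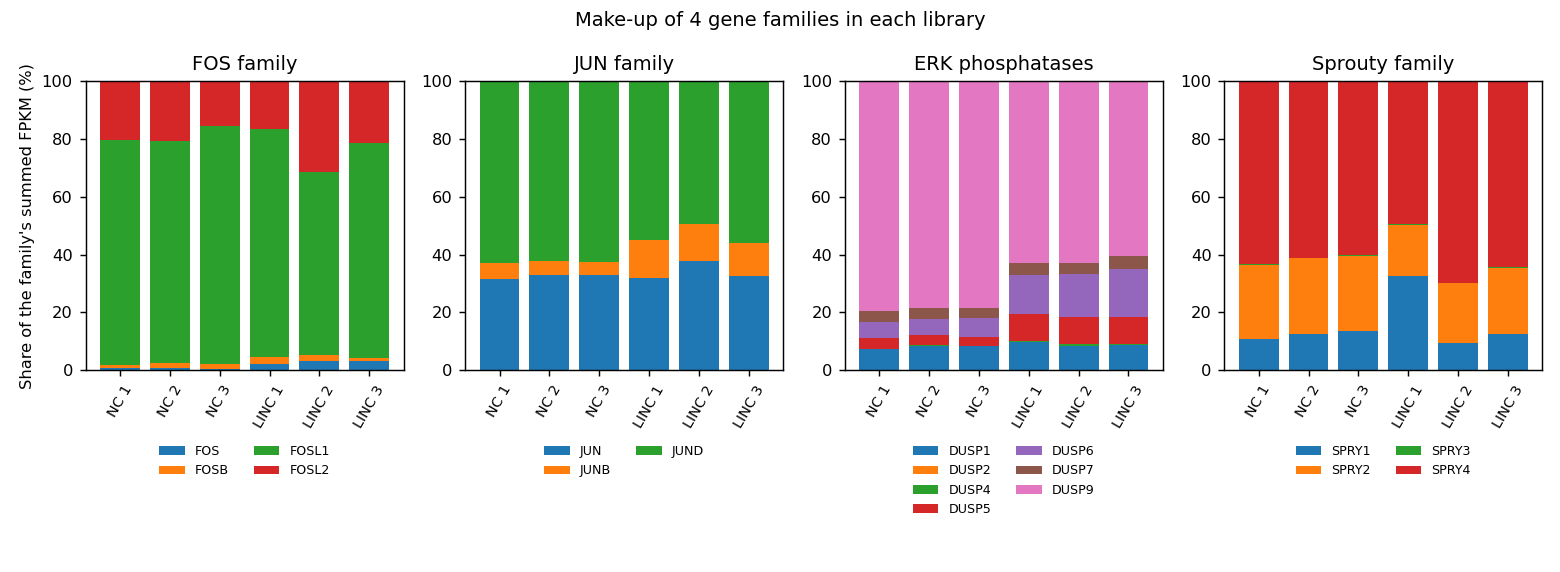
Share of each gene in the summed FPKM of its family, in percent, as stacked bars with 1 bar per library for the FOS, JUN, ERK phosphatase and Sprouty families. The JUNB share lies between 4.48 and 5.51% in sh-NC and between 11.4 and 13.1% in sh-LINC01977, and the DUSP9 share is lower in all 3 sh-LINC01977 libraries.

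The wider pathway was described by 4 lists of genes other than the members, 93 genes in all, of which 90 were in the table and 70 were tested. Of the 70, 13 were called higher and 8 lower, or 30% in either direction, beside 15.1% of all genes tested (7.05% higher and 8.07% lower). The lists too were chosen with earlier results of these data known, so these counts are a description. The 13 include EREG, which passed the filter only through the group where it was high. Their median log2 fold change was -0.036, beside -0.0010 over all genes tested. Scaled by library totals in place of TMM, which moved the median of all genes tested to 0.065, the counts were 17 higher and 5 lower. Over all genes tested the share of calls that were higher was 46.6%, and 65.5% with library totals. Of the 70 genes, 10 varied over 2-fold between libraries of 1 group. MYC, named after its values were seen, had 173, 177 and 169 CPM in sh-NC and 159, 161 and 7.24 CPM in sh-LINC01977, with replicate 3 far below the rest (adjusted p = 0.659).

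Of the 18 other immediate early genes tested 2 were called higher and 3 lower, or 27.8% beside 15.1% of all genes, with a median log2 fold change of -0.13. With library totals 4 were called higher and 3 lower, and with DESeq2 3 in each direction. CYR61, a secreted matrix protein, rose by 0.53 on the log2 scale (adjusted p = 0.00943), and TRIB1, a pseudokinase, by 0.41 (adjusted p = 0.00434). BTG2, an antiproliferative gene, fell by 0.62 (adjusted p = 0.00929), CTGF, a relative of CYR61, by 0.54 (adjusted p = 0.0113) and JUND by 0.46 (adjusted p = 0.0173). JUND had 83.6, 85.0 and 83.4 CPM in sh-NC and 64.6, 53.2 and 65.9 CPM in sh-LINC01977.

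Of the 14 other ERK feedback and target genes tested 3 were called higher and 3 lower, or 42.9% beside 15.1% of all genes, with a median of 0.047. DUSP5 had 12.6, 12.1 and 9.60 CPM in sh-NC and 22.2, 20.2 and 20.6 CPM in sh-LINC01977, a log2 fold change of 0.88 (adjusted p = 0.00585). DUSP9 moved the other way, from 288, 282 and 273 CPM to 160, 141 and 141 CPM, a log2 fold change of -0.93. SPRY4 rose by 0.48 on the log2 scale and CCND1, the cyclin D1 gene, by 0.24, while DUSP7, another cytoplasmic ERK phosphatase, fell by 0.40 and ETV4, an ETS factor, by 0.21. The ERK phosphatase genes called thus moved in both directions, with DUSP6 and DUSP5 higher and DUSP9 and DUSP7 lower. With library totals in place of TMM, 4 genes of this list were called higher and 1 lower.

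Of the 24 genes of the RAS-ERK cascade tested 2 were called higher and 2 lower, or 16.7%, a share near the 15.1% of all genes. The median was -0.017. With library totals 3 were called higher and 1 lower, and with DESeq2 2 higher and 4 lower. ELK3, an ETS factor that binds with serum response factor, had 22.7, 25.2 and 22.4 CPM in sh-NC and 44.0, 45.6 and 43.0 CPM in sh-LINC01977, a log2 fold change of 0.91 (adjusted p = 0.00106). SHC1, an adaptor between receptors and RAS, rose by 0.40 on the log2 scale. RPS6KA3, which encodes the ERK-activated kinase RSK2, had 822, 819 and 847 CPM in sh-NC and 544, 576 and 544 CPM in sh-LINC01977, a log2 fold change of -0.58. MAPK3, which encodes ERK1, fell by 0.25 (adjusted p = 0.0475).

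Of the 14 receptors and ligands tested 6 were called higher and none lower by edgeR, or 42.9% beside 15.1% of all genes in either direction, with a median of 0.20. At an unadjusted p under 0.05 edgeR gave 3 lower, and DESeq2 called 3 lower after adjustment. AREG and EREG encode ligands of the EGF receptor. AREG had 45.0, 42.2 and 39.8 CPM in sh-NC and 74.9, 69.3 and 66.0 CPM in sh-LINC01977, a log2 fold change of 0.73 (adjusted p = 0.00211). EREG had 2.22, 2.90 and 2.91 CPM against 5.38, 6.16 and 6.25 CPM, a log2 fold change of 1.15. At a mean of 0.370 FPKM in sh-NC and 0.857 FPKM in sh-LINC01977, EREG passed the filter only through the group where it was high, so its call is not independent of the filter. EGFR, their receptor, had 20.2, 20.4 and 22.2 CPM against 30.5, 30.4 and 30.1 CPM, a log2 fold change of 0.53. All 3 had groups that lay apart, and PDGFRB, a receptor of platelet-derived growth factor, rose by 1.47 on the log2 scale (adjusted p = 0.00620).

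**Figure D5:**
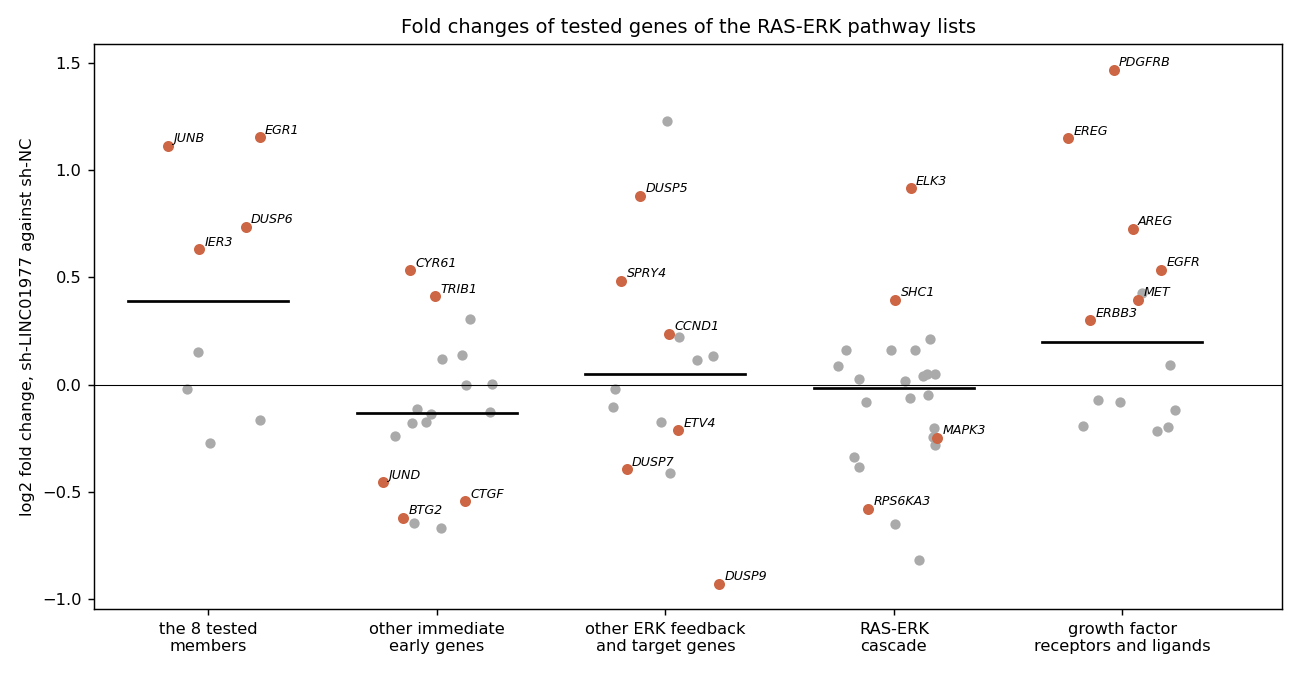
Log2 fold change, sh-LINC01977 against sh-NC, of the 8 tested members and of each tested gene of the 4 pathway lists, with 1 point per gene, a bar at each median, and the genes called by edgeR at an adjusted p under 0.05 in orange with their names. The other immediate early genes, the other ERK feedback and target genes and the cascade hold calls in both directions, and the 6 calls among receptors and ligands are all higher. EREG, among these 6, passed the filter only through the group where it was high.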

How the data were processed

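Libraries of total RNA from HepG2 cells, 3 labelled sh-NC and 3 labelled sh-LINC01977, were sequenced by the study. The submitters' processing notes name bcl2fastq 2.0, HISAT2, StringTie, DESeq2, limma and hg38 without their roles, and the strand setting is not given in the sources used here. The authors deposited whole-number read counts per gene and FPKM values (scaled to gene length and library depth) of the same libraries. In the deposited counts the value 4 was more frequent (8101 gene and library pairs) than 3 (2780) or 5 (1758), and counts divided by 4 were an alternative. Counts were tested with edgeR 4.0.16 in R 4.3.3, by the quasi-likelihood test with TMM scaling and Benjamini-Hochberg adjustment over the 13452 genes with a mean of at least 0.5 FPKM. Members below that were read from the same fit of all 29153 genes. DESeq2 1.42.0 and limma 3.58.1 on log2(FPKM + 0.1) and log2(FPKM + 1) were alternatives, with other scalings and filters, a replicate block and each library left out. CPM were counts scaled to the TMM-adjusted library size. Members and gene lists were chosen with earlier results of these data known. All members were named, with up to 4 genes in each direction per pathway list, by log2 fold change among those called with no overlap between groups, and members of the 4 families. The genes KLF2, EPHA4, HGF and CD3E were not analysed here.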

Additional observations from a re-analysis of the deposited data

How the results depend on the processing

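JUNB, EGR1, IER3 and DUSP6 were called higher in all 16 alternatives, with adjusted p values of at most 0.0129, 0.0186, 0.0191 and 0.0166. FOSL1, JUN, SPRY2 and IER2 were called in none of the 16, with lowest adjusted p values of 0.126, 0.0833, 0.210 and 0.176. FOS was called in 7 of 14 alternatives and DUSP4 in 6 of 14. The log2 fold change of IER2 changed sign with library totals (0.050), upper quartile scaling (0.0098), and limma on log2(FPKM + 0.1) (0.096) or log2(FPKM + 1) (0.083), and ran from -0.20 to 0.29 with 1 library left out. Members past a fold of 2 and P of 0.05 numbered 0 with limma on log2(FPKM + 1), whose pseudocount shrinks low genes, and 4 with no filter, where all 10 were tested. Pathway list genes called lower numbered 14 with DESeq2, 5 with library totals, 5 with limma at either pseudocount, and 5 to 8 with 1 library left out, being 5 without sh-NC replicate 1, sh-NC replicate 2 or sh-LINC01977 replicate 2, and the cause was not tested. With CPM in place of FPKM, which leaves gene length out of the shares, the differences in percentage points were 5.65 for JUNB, 0.688 for DUSP4 and 12.8 for DUSP6. FOS had 16 to 89 counts per library and DUSP4 67 to 187. With counts divided by 4 both were still called (edgeR adjusted p = 0.0139 and 0.0270).

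The shared replicate numbers gave no clear sign of pairing, which a check on 3 libraries per group cannot exclude. Deviations from the group means correlated by -0.032, 0.0044 and 0.063 between libraries of the same number, and only the libraries numbered 3 correlated best with their own number. With a replicate block 4 members were again called higher, and FOS (edgeR adjusted p = 0.1003) and DUSP4 (0.104) were not called. Their log2 fold changes were 1.845 and 1.02 with the block, beside 1.86 and 1.04 without it. That of IER2 was 0.032 with the block. Over all genes 636 were called higher and 754 lower with the block, beside 948 and 1085.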
